A study of Homo sapiens with 29 samples.

Results

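The sterol and fatty acid synthesis genes driven by the sterol regulatory element-binding proteins (SREBPs) were followed through RNA-seq libraries of 2 human prostate cancer cell lines. The set was a list of 34 gene symbols, chosen with earlier results of these data known. All-gene shares printed beside counts of members therefore describe the set and do not test it. All 34 symbols matched a row among the 63677 features of both count tables and passed the filter on low counts. Of these, 7 encode enzymes of the mevalonate pathway, 11 act between squalene and cholesterol, 6 control SREBP or carry sterol, and 10 make, activate or desaturate fatty acids. C4-2, a castration-resistant derivative of the LNCaP line, was kept in medium with hormones and given single compounds or pairs at 1 µM each for 24 h. Its 8 groups of 3 libraries were no compound (Ctrl), enzalutamide (Enza), each of the kinase inhibitors NU7441, CC-115 and CC-223 alone, and each of these inhibitors together with Enza. The second line, 22Rv1, which was derived from a relapsed prostate cancer xenograft, gave 3 Control and 2 CC-115 libraries at the same dose and time, also with hormones in the medium. NU7441 inhibits the DNA repair kinase DNA-PK, CC-223 inhibits the mTOR kinase, CC-115 inhibits both, and enzalutamide blocks the androgen receptor. Each line stands for 1 tumour, and the labels do not say whether the libraries of a group came from separate cultures, so the p-values measure the spread between these libraries, which may be technical.

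SREBPs are membrane-bound transcription factors of the endoplasmic reticulum. When membrane sterol is low, the escort protein SCAP carries them to the Golgi, where proteases release the part that enters the nucleus. When sterol is plentiful, INSIG proteins hold SCAP and SREBP back. The SREBF2 product acts mainly on cholesterol genes and the SREBF1 product mainly on fatty acid genes. In prostate cells both androgen receptor and mTOR signalling are known to raise the activity of this pathway.

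C4-2 libraries held 29.58 M to 44.86 M counts each and those of 22Rv1 31.61 M to 44.91 M. Luminal prostate markers were present in both lines, while the basal markers KRT5 and TP63 and the leukocyte markers PTPRC and CD3E reached at most 7 counts in any library. The summed level of the 7 luminal markers moved with treatment in C4-2, from 4227 to 4503 counts per 1 M counts (CPM) in Ctrl to 8242 to 8510 in CC-115 and 3658 to 4967 in CC-115+Enza. Collagen and decorin genes summed to at most 12.5 CPM in C4-2, the endothelial marker VWF to at most 4.58 CPM, and the adipocyte and hepatocyte markers ADIPOQ, PLIN1 and ALB to at most 3.34 CPM. The stroma sum reached its highest value in an Enza library and VWF its lowest in CC-115+Enza (0.566 to 0.892 CPM), and the part of these shifts in the results was not tested. In 22Rv1 the last 3 summed to 574 to 694 CPM in Control and 164 to 260 CPM in CC-115, nearly all from ALB. Replicate 1 of Enza and replicate 1 of CC-115+Enza stood apart from their groups. Their root mean square deviations were 0.346 and 0.354 on the log2 scale, against 0.0642 to 0.221 in the other C4-2 libraries. These values cover genes with an average log2 CPM above 1. The 22Rv1 libraries fell into a deeper set (Control 1, Control 2 and CC-115 1) and a shallower set (Control 3 and CC-115 2). Counts of calls that these libraries enter are given with and without them where they change most.

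In untreated C4-2 the members spanned a wide range of levels per transcript length. ELOVL5, which elongates polyunsaturated fatty acids, stood at 126 ± 5.24 RPKM (CPM per kilobase of exon, mean ± SD, n = 3). ACLY (121 ± 3.33 RPKM), which makes cytosolic acetyl-CoA, INSIG1 (114.7 ± 6.58 RPKM) and the desaturase FADS2 (103 ± 0.877 RPKM) followed. ACACB, the mitochondrial acetyl-CoA carboxylase, was at 1.34 ± 0.123 RPKM and the lipase PNPLA3, the lowest, at 0.886 ± 0.0513 RPKM, with at least 93 counts in each Ctrl library.

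Together the 34 genes took a larger share of the reads in CC-115+Enza than in any other C4-2 group. Their share was 1.28%, 1.13% and 0.943% of all counts in the 3 CC-115+Enza libraries. It was 0.572% to 0.606% in Ctrl, 0.584% to 0.626% in CC-115, 0.502% to 0.591% in Enza, 0.471% to 0.507% in CC-223 and 0.385% to 0.391% in CC-223+Enza. In these bulk libraries fewer cells of a type and less RNA per cell cannot be told apart. No library of another C4-2 group passed 0.739%, the highest value in NU7441. FASN and SCD weighed heavily in the CC-115+Enza share. FASN had 116830, 98868 and 76457 counts and SCD 73551, 86538 and 78182 in these libraries. In Ctrl they had 13992 to 21586 and 13706 to 16063 counts. The share without these genes was not computed. Replicate 1 of CC-115+Enza had the highest share, which is a share of unscaled counts. On the log2 scale after TMM scaling between libraries, it had the lowest median deviation of the members from the group mean (−0.282). Its TMM factor was 1.30, against 1.01 and 1.05 in replicates 2 and 3. A higher factor lowers all scaled values of a library, so the 2 measures are not on the same scale. The mean level was highest in CC-115+Enza for 17 of the 34 genes and in NU7441 for 8, and it was lowest in CC-223+Enza for 20. Members did not move as a block: ELOVL5 was low in each group with Enza, and EBP and ACAT2 were lowest in the 2 groups with CC-115.

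**Figure D1:**
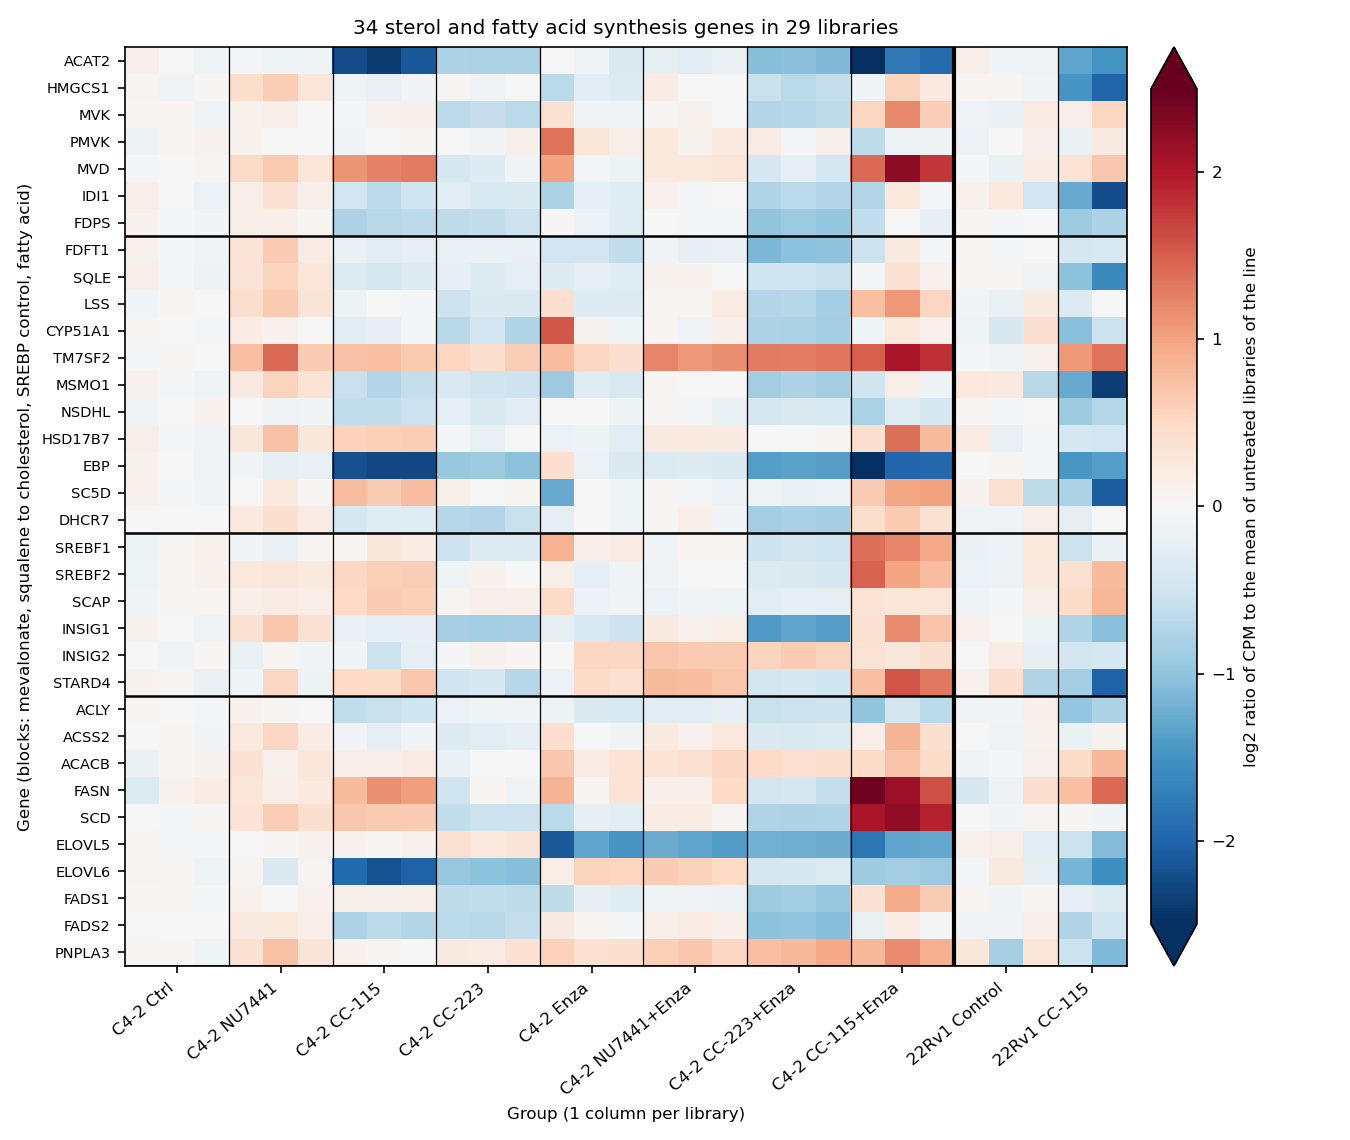
Level of each of the 34 genes (rows, in 4 blocks by role) in each of the 29 libraries (columns), as the log2 ratio of TMM-scaled CPM to the mean of the untreated libraries of the same line, from blue (lower) to red (higher). The CC-115+Enza columns hold the strongest red, for FASN, SCD and MVD, the CC-223+Enza columns are mostly blue, and ACAT2 and EBP are blue wherever CC-115 was given.

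In the comparison of CC-115+Enza with CC-115 alone, which asks what enzalutamide added, 22 of 34 members rose and 1 fell, against 11.7% and 12.2% of the 22860 genes tested. Calls here and below are at an adjusted p under 0.05 by edgeR's quasi-likelihood test with Benjamini-Hochberg adjustment over all genes tested. The median log2 fold change was 0.52 over the members and −0.01 over all genes. Against Enza alone 20 members rose and 7 fell (all genes 28.5% and 30.2%, medians 0.43 and 0.03). Against CC-223+Enza 24 rose and 3 fell (all genes 23.7% and 26.7%, medians 0.87 and 0.01). Against Ctrl 19 rose and 6 fell (all genes 33.7% and 30.5%, medians 0.42 and 0.11). These 4 comparisons share the CC-115+Enza libraries and are not independent of one another.

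Members whose libraries did not overlap between groups were counted as well. All 3 CC-115+Enza libraries lay above all 3 CC-115 libraries for 22 members and below for 3, against 16.9% and 20.1% of all genes. They lay above Enza for 17 and below for 6 (24.5% and 26.7% of all genes), and above CC-223+Enza for 23 and below for 6 (24.8% and 30.8%). Against Ctrl they lay above for 19 and below for 7 (32.7% and 31.5%). Without replicate 1 of Enza and of CC-115+Enza, 30 members rose and 2 fell against CC-115 (all genes 10.8% and 12.9%), and the median became 0.63. In that fit 23 rose and 6 fell against Enza (27.9% and 29.9%), 24 and 5 against CC-223+Enza (26.1% and 29.5%) and 22 and 6 against Ctrl (33.4% and 31.8%). Of the rises over CC-115, those of HMGCS1, MVD, ACACB and MSMO1 were not called with 1 or another of the CC-115 libraries or replicate 2 of CC-115+Enza left out.

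The genes that control SREBP rose in most of these comparisons. All 6 rose in CC-115+Enza against Ctrl, where 33.7% of all genes rose. Against CC-115 and against CC-223+Enza 5 rose and none fell (11.7% and 23.7% of all genes rose). Against Enza 4 rose (28.5% of all genes). The escort SCAP was the 1 gene of this role not called against CC-115 (−0.27 ± 0.11, adjusted p = 0.0812), and INSIG2, the second retention protein, the 1 not called against CC-223+Enza (−0.24 ± 0.12, adjusted p = 0.0958). INSIG1 (ENSG00000186480, chromosome 7, 155089486 to 155101945 in hg19), the sterol-sensing retention protein and itself a classic SREBP target, stood at 443, 419 and 395 TMM-scaled CPM in the 3 Ctrl libraries, 548, 672 and 543 with NU7441, 369, 351 and 364 with CC-115 and 234, 233 and 237 with CC-223. It was at 353, 321 and 292 CPM with Enza, 487, 449.9 and 465 with NU7441+Enza, 543, 947 and 682 with CC-115+Enza and 157, 168 and 161 with CC-223+Enza. The CC-115+Enza libraries lay above every CC-115, Enza and CC-223+Enza library, and the CC-223+Enza libraries lay below every other C4-2 library. INSIG1 rose by 1.00 ± 0.14 log2 (fold change ± SE, n = 3 libraries per C4-2 group here and below) over CC-115 alone, 1.17 ± 0.14 over Enza alone and 2.16 ± 0.14 over CC-223+Enza (adjusted p = 3.36e-12).

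SREBF1 (ENSG00000072310, chromosome 17, 17713713 to 17740325) encodes SREBP-1. Its CPM were 241, 269 and 285 in Ctrl, 251, 232 and 271 with NU7441, 273, 321 and 299 with CC-115 and 185, 212 and 212 with CC-223. They were 486, 289 and 307 with Enza, 249, 277 and 277 with NU7441+Enza, 684, 615 and 514 with CC-115+Enza and 186, 192 and 188 with CC-223+Enza. Replicate 1 was the highest in both Enza and CC-115+Enza, and even so no Enza library reached the lowest CC-115+Enza library. SREBF1 rose by 1.02 ± 0.15 over CC-115, 0.75 ± 0.14 over Enza and 1.68 ± 0.15 over CC-223+Enza.

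SREBF2 (ENSG00000198911, chromosome 22, 42229109 to 42303312) encodes SREBP-2. It was measured at 119.9, 132 and 137 CPM in Ctrl, 155, 159 and 153 with NU7441, 184, 196 and 198 with CC-115 and 120.0, 137 and 129 with CC-223. The Enza libraries gave 143, 109 and 119.7 CPM, those with NU7441+Enza 122, 129 and 131, those with CC-115+Enza 361, 256 and 222 and those with CC-223+Enza 102, 101 and 94.9. All CC-115+Enza libraries exceeded all other C4-2 libraries, with replicate 1 well above its partners. The rise over CC-115 was 0.54 ± 0.13 (adjusted p = 0.0031) and was not called when only those 2 groups were fitted (adjusted p = 0.106); without the 2 libraries that stand apart it was 0.31. Over Enza and over CC-223+Enza SREBF2 rose by 1.17 ± 0.13 and 1.496 ± 0.13. INSIG2 rose over CC-115 (0.61 ± 0.12). STARD4, a cytosolic sterol carrier, rose by 0.70 ± 0.17 over CC-115, 0.99 ± 0.17 over Enza and 1.70 ± 0.18 over CC-223+Enza.

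Of the 7 mevalonate pathway genes, 4 rose and none fell against CC-115 (all genes 11.7% and 12.2%). Against Enza 3 rose and 2 fell (28.5% and 30.2%), and against CC-223+Enza 5 rose and 1 fell (23.7% and 26.7%). HMGCS1 (ENSG00000112972, chromosome 5, 43289497 to 43313614), the synthase that commits acetyl units to the pathway, stood at 81.8, 72.9 and 79.3 CPM in Ctrl, 106, 120.2 and 96.8 with NU7441, 72.3, 68.4 and 74.6 with CC-115 and 79.7, 72.9 and 78.3 with CC-223. Its CPM were 49.1, 64.5 and 62.0 with Enza, 88.9, 78.7 and 78.1 with NU7441+Enza, 74.7, 114.9 and 92.3 with CC-115+Enza and 53.0, 48.9 and 51.5 with CC-223+Enza. The lowest CC-115+Enza library, replicate 1, was within 1 CPM of the highest CC-115 library, while all 3 lay above every Enza and CC-223+Enza library. HMGCS1 rose by 0.39 ± 0.12 over CC-115 (adjusted p = 0.0252, a call lost in 5 alternative fits), 0.68 ± 0.13 over Enza and 0.88 ± 0.13 over CC-223+Enza.

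MVD (ENSG00000167508, chromosome 16, 88718343 to 88729569), the decarboxylase that makes isopentenyl diphosphate, had 68.5, 122 and 87.1 CPM with CC-115+Enza, 55.3, 61.0 and 62.9 with CC-115, 51.5, 25.2 and 23.4 with Enza, 19.1, 21.8 and 19.1 with CC-223+Enza and 25.1, 25.5 and 26.3 in Ctrl. In C4-2 it was high wherever CC-115 was given, and only replicate 1 of Enza passed 50 CPM without CC-115. Over Enza it rose by 1.47 ± 0.20 (2.10 without the 2 libraries that stand apart) and over CC-223+Enza by 2.21 ± 0.21, while its rise over CC-115 (0.63 ± 0.20, adjusted p = 0.0228) was not called with any 1 of the CC-115 libraries or replicate 2 of CC-115+Enza left out. ACAT2 (ENSG00000120437, chromosome 6, 160181360 to 160200144), the cytosolic thiolase that opens the pathway, went the other way, at 8.18, 18.6 and 16.8 CPM with CC-115+Enza and 13.8, 12.3 and 14.8 with CC-115 against 64.1, 59.9 and 49.6 with Enza, 30.5, 31.2 and 29.8 with CC-223+Enza and 69.7, 63.3 and 59.2 in Ctrl. Both CC-115 groups lay below every library without CC-115. ACAT2 fell against Enza (−1.99 ± 0.17) and showed 0.09 ± 0.17 against CC-115 (adjusted p = 0.731, 95% interval −0.24 to 0.43). Of its exon bases 42.7% are shared with a gene on the opposite strand, and the strand setting of the counting is not given in the sources used here. MVK, the mevalonate kinase, rose over CC-115 (0.75 ± 0.13), Enza (0.73 ± 0.13) and CC-223+Enza (1.51 ± 0.14), and FDPS, which makes farnesyl diphosphate, rose over CC-115 (0.46 ± 0.11) and CC-223+Enza (0.71 ± 0.12). IDI1, the isopentenyl diphosphate isomerase, rose over CC-223+Enza alone (0.62 ± 0.16, against 0.43 ± 0.16 over CC-115, adjusted p = 0.0536).

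Between squalene and cholesterol, 5 of 11 genes rose and none fell against CC-115 (all genes 11.7% and 12.2%). Against Enza 8 rose and 3 fell (28.5% and 30.2%), and against CC-223+Enza 9 rose and 1 fell (23.7% and 26.7%). SQLE, the squalene epoxidase that is a rate-limiting step of the sterol branch, stood at 81.4, 71.3 and 67.5 CPM in Ctrl, 91.4, 109 and 91.1 with NU7441, 57.9, 54.2 and 58.5 with CC-115 and 63.7, 58.9 and 61.6 with CC-223. With Enza it was at 58.9, 63.7 and 59.3 CPM, with NU7441+Enza at 78.3, 78.2 and 73.0, with CC-115+Enza at 71.5, 93.8 and 79.3 and with CC-223+Enza at 52.2, 52.2 and 50.2. The CC-115+Enza libraries overlapped Ctrl and lay above CC-115, Enza and CC-223+Enza. SQLE rose by 0.52 ± 0.10 over CC-115, 0.43 ± 0.10 over Enza and 0.66 ± 0.10 over CC-223+Enza.

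LSS (ENSG00000160285, chromosome 21, 47608055 to 47648738), which cyclises the squalene epoxide to lanosterol, rose by 0.86 ± 0.15 over CC-115, 0.83 ± 0.15 over Enza and 1.56 ± 0.15 over CC-223+Enza. DHCR7, the last reductase before cholesterol, rose by 0.84 ± 0.09, 0.61 ± 0.09 and 1.33 ± 0.10 against the same groups, and the sterol reductase TM7SF2 by 1.09 ± 0.15, 1.23 ± 0.15 and 0.50 ± 0.15. MSMO1, a sterol methyl oxidase, had 59.4, 93.8 and 76.5 CPM with CC-115+Enza, 56.8, 50.3 and 55.5 with CC-115, 44.9, 67.6 and 64.1 with Enza, 46.2, 49.1 and 45.8 with CC-223+Enza and 90.4, 82.5 and 78.6 in Ctrl, so that CC-115+Enza lay above CC-115 and overlapped both Enza and Ctrl. It rose by 0.50 ± 0.14 over CC-115. FDFT1, which makes squalene, rose over Enza (0.44 ± 0.13) and CC-223+Enza (0.97 ± 0.14) and was not called against CC-115 (0.16 ± 0.13). HSD17B7, a sterol ketoreductase, and SC5D, a sterol desaturase, likewise rose over Enza (1.10 ± 0.15 and 1.23 ± 0.18) and over CC-223+Enza (0.90 ± 0.15 and 1.03 ± 0.18), while NSDHL, a sterol dehydrogenase, fell against Enza (−0.45 ± 0.10).

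EBP (ENSG00000147155, chromosome X, 48379546 to 48387104), a sterol isomerase, kept a different order. It was at 159, 151 and 140.3 CPM in Ctrl and 201, 136 and 116 with Enza, at 78.0, 80.5 and 74.0 with CC-223 and 57.8, 59.6 and 58.1 with CC-223+Enza, and at 32.6, 31.4 and 31.5 with CC-115 and 25.9, 37.9 and 38.7 with CC-115+Enza. The 3 levels did not overlap: highest without a TOR kinase inhibitor, lower with CC-223 and lowest with CC-115. EBP fell against Enza (−2.14 ± 0.15) and against CC-223+Enza (−0.78 ± 0.15), and showed 0.10 ± 0.15 against CC-115 (adjusted p = 0.638, 95% interval −0.18 to 0.39). CYP51A1, the lanosterol demethylase, was called lower than in Enza (−0.61 ± 0.24), where replicate 1 of Enza read 60.7 CPM and the others 21.9 and 19.2. Without that replicate the value was 0.16, in the opposite direction. Of the exon bases of CYP51A1 78.8% are shared with LRRD1 on the same strand, which had 103 counts over the C4-2 libraries. How reads in shared bases were counted is not given in the sources used.

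Of the 10 fatty acid genes, 8 rose and 1 fell against CC-115 (all genes 11.7% and 12.2%). Against Enza 5 rose and 2 fell (28.5% and 30.2%), and against CC-223+Enza 5 rose and 1 fell (23.7% and 26.7%). SCD (ENSG00000099194, chromosome 10, 102106881 to 102124591), the desaturase that makes oleate, showed the largest rise in each of these 3 comparisons. Its CPM were 435, 432 and 447 in Ctrl, 555, 672 and 578 with NU7441, 694, 690.3 and 681 with CC-115 and 286, 303 and 302 with CC-223. They were 274, 376 and 366 with Enza, 496, 496 and 460.1 with NU7441+Enza, 1806, 2041 and 1661 with CC-115+Enza and 261, 258 and 260.4 with CC-223+Enza. The CC-115+Enza libraries formed a level of their own, above every other C4-2 library. Of the exon bases of SCD 36.8% are shared with another feature on the same strand, which had 0 counts in C4-2. How reads in those bases were counted is not given. SCD rose by 1.42 ± 0.11 over CC-115 (adjusted p = 3.65e-10), 2.44 ± 0.12 over Enza and 2.82 ± 0.12 over CC-223+Enza.

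FASN (ENSG00000169710, chromosome 17, 80036214 to 80056208), the fatty acid synthase, was more variable between libraries. It stood at 417, 569 and 601 CPM in Ctrl, 650.1, 593 and 629 with NU7441, 920.4, 1161 and 1096 with CC-115 and 376, 550.2 and 499.8 with CC-223. The remaining groups gave 949.9, 546 and 668 with Enza, 579, 582 and 745 with NU7441+Enza, 2869, 2332 and 1624 with CC-115+Enza and 385, 388 and 351 with CC-223+Enza. Every CC-115+Enza library exceeded every other C4-2 library, with replicate 1 the highest and replicate 3 the lowest of the 3. FASN rose by 1.10 ± 0.19 over CC-115, 1.66 ± 0.20 over Enza and 2.60 ± 0.20 over CC-223+Enza, and by 0.90, 1.71 and 2.40 without the 2 libraries that stand apart.

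**Figure D2:**
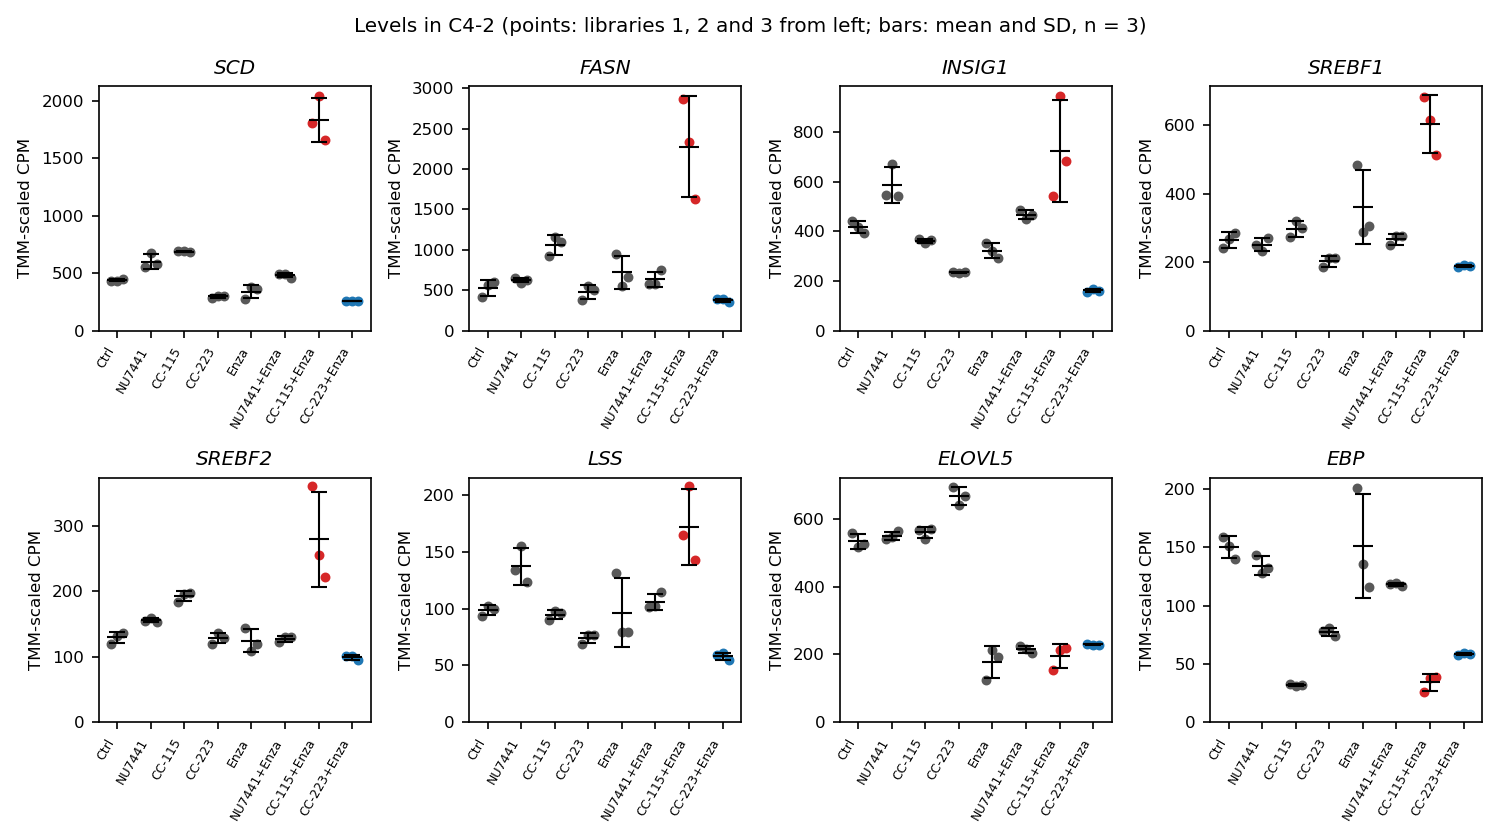
TMM-scaled CPM of 8 genes in the 24 C4-2 libraries (vertical axes from 0), with 3 points per group and bars for the mean and SD (n = 3). SCD, FASN, SREBF1 and SREBF2 are highest in CC-115+Enza (red) and low in CC-223+Enza (blue), ELOVL5 is low in the 4 groups with Enza, and EBP is lowest in the 2 groups with CC-115.

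The elongases kept other patterns. ELOVL5 (ENSG00000012660, chromosome 6, 53132196 to 53213947) was at 559, 517 and 525 CPM in Ctrl, 567, 542 and 571 with CC-115, 125, 214 and 193 with Enza, 153, 213 and 218 with CC-115+Enza and 232, 229 and 227 with CC-223+Enza, and no library with Enza reached the lowest library without it. It fell in CC-115+Enza against CC-115 (−1.52 ± 0.14), in CC-223+Enza against CC-223 (−1.54 ± 0.14) and in NU7441+Enza against NU7441 (−1.36 ± 0.14). ELOVL6 (ENSG00000170522, chromosome 4, 110967002 to 111120355), which elongates saturated fatty acids, was at 5.02, 4.30 and 4.77 CPM with CC-115, 10.5, 10.6 and 10.3 with CC-115+Enza, 14.4, 14.4 and 15.3 with CC-223+Enza, 21.4, 28.5 and 28.2 with Enza and 20.4, 19.7 and 18.1 in Ctrl. It rose by 1.16 ± 0.12 over CC-115 and fell against Enza (−1.31 ± 0.12), and the CC-115 libraries were the lowest of all. The desaturase FADS1 rose by 0.52 ± 0.11 over CC-115, 1.03 ± 0.12 over Enza and 1.55 ± 0.12 over CC-223+Enza, and FADS2 by 0.73 ± 0.10 over CC-115 and 1.03 ± 0.10 over CC-223+Enza. ACSS2, which activates acetate, rose over CC-115 (0.62 ± 0.14) and CC-223+Enza (0.86 ± 0.14), and ACLY fell against Enza (−0.41 ± 0.11). ACACB (0.38 ± 0.11) and PNPLA3 (0.92 ± 0.13) rose over CC-115.

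Whether the combination differed from the sum of its parts was tested as an interaction, the change with CC-115+Enza minus the changes with CC-115 and with Enza, on the log2 scale. It was positive and called for 14 of 34 members and negative and called for 1, against 0.993% and 2.27% of all genes, with a median of 0.54 over the members and −0.06 over all genes. SCD (1.79 ± 0.16, adjusted p = 6.64e-08), INSIG1 (1.38 ± 0.19, 6.17e-05) and MSMO1 (1.01 ± 0.20, 0.0027) had the largest values. By role the positive calls were 4 of 7 mevalonate genes (HMGCS1 0.80, MVK 0.66, IDI1 0.85 and FDPS 0.60), 5 of 11 between squalene and cholesterol (FDFT1 0.68, SQLE 0.80, LSS 0.89, MSMO1 and DHCR7 0.95), 1 of 6 control genes (INSIG1) and 4 of 10 fatty acid genes (SCD, ELOVL6 0.73, FADS1 0.90 and FADS2 0.64). FASN (0.66 ± 0.27, adjusted p = 0.204), SREBF1 (0.57 ± 0.20, 0.129) and SREBF2 (0.60 ± 0.18, 0.0672) were not called. The negative call was PMVK (−0.98 ± 0.27), the phosphomevalonate kinase, which read 71.7, 34.3 and 31.1 CPM in Enza, 26.8, 28.0 and 28.6 in CC-115, 18.1, 25.1 and 25.6 in CC-115+Enza and 25.7, 28.4 and 29.7 in Ctrl, and whose value was −0.36 without the 2 libraries that stand apart.

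The number of interaction calls depended on the fit. It was 22 positive and 1 negative without replicate 1 of Enza and of CC-115+Enza (all genes 2.72% and 3.45%), 9 and 0 without replicate 1 of CC-115 (0.685% and 1.29%), and 6 and 0 when only the 4 groups were fitted (0.374% and 0.384%). The calls of FDFT1, MVK, FDPS and IDI1 were lost in 11, 10, 10 and 9 of the alternative fits, that of PMVK in 12 and that of LSS in 2.

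With CC-223 in place of CC-115 no interaction was called for any member by edgeR or by DESeq2, where edgeR called 0.127% of all genes positive and 0.249% negative. At an unadjusted p under 0.05, 0 members were positive and 6 negative, and the all-gene share at that cut was not computed. SCD showed 0.18 ± 0.16 (95% interval −0.13 to 0.49), INSIG1 −0.16 ± 0.19 (−0.53 to 0.22), SQLE 0.02 ± 0.14 (−0.26 to 0.31) and FASN −0.79 ± 0.27 (−1.32 to −0.26).

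The 2 interactions were then compared with each other, which removes the Ctrl and Enza libraries from the contrast. The CC-115 interaction exceeded that of CC-223 for 32 of 34 members, and 15 differences were called, all positive, against 0.906% of all genes called in that direction and 0.984% in the other. The median difference was 0.72 over the members and −0.03 over all genes. SCD (1.61 ± 0.16, adjusted p = 8.69e-07), INSIG1 (1.54 ± 0.19, 2.34e-05), FASN (1.45 ± 0.27, 0.00316), LSS (1.21 ± 0.21, 0.00139) and SREBF1 (1.13 ± 0.20, 0.00209) had the largest differences. The other calls were FADS2 (1.10), FDFT1 (1.02), DHCR7 (1.01), HMGCS1 (0.98), SREBF2 (0.91), MSMO1 (0.87), FDPS (0.82), MVK (0.81), FADS1 (0.78) and SQLE (0.77). Without the replicates that stand apart 26 were called, all positive (all genes 2.6% positive and 2.7% negative).

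**Figure D3:**
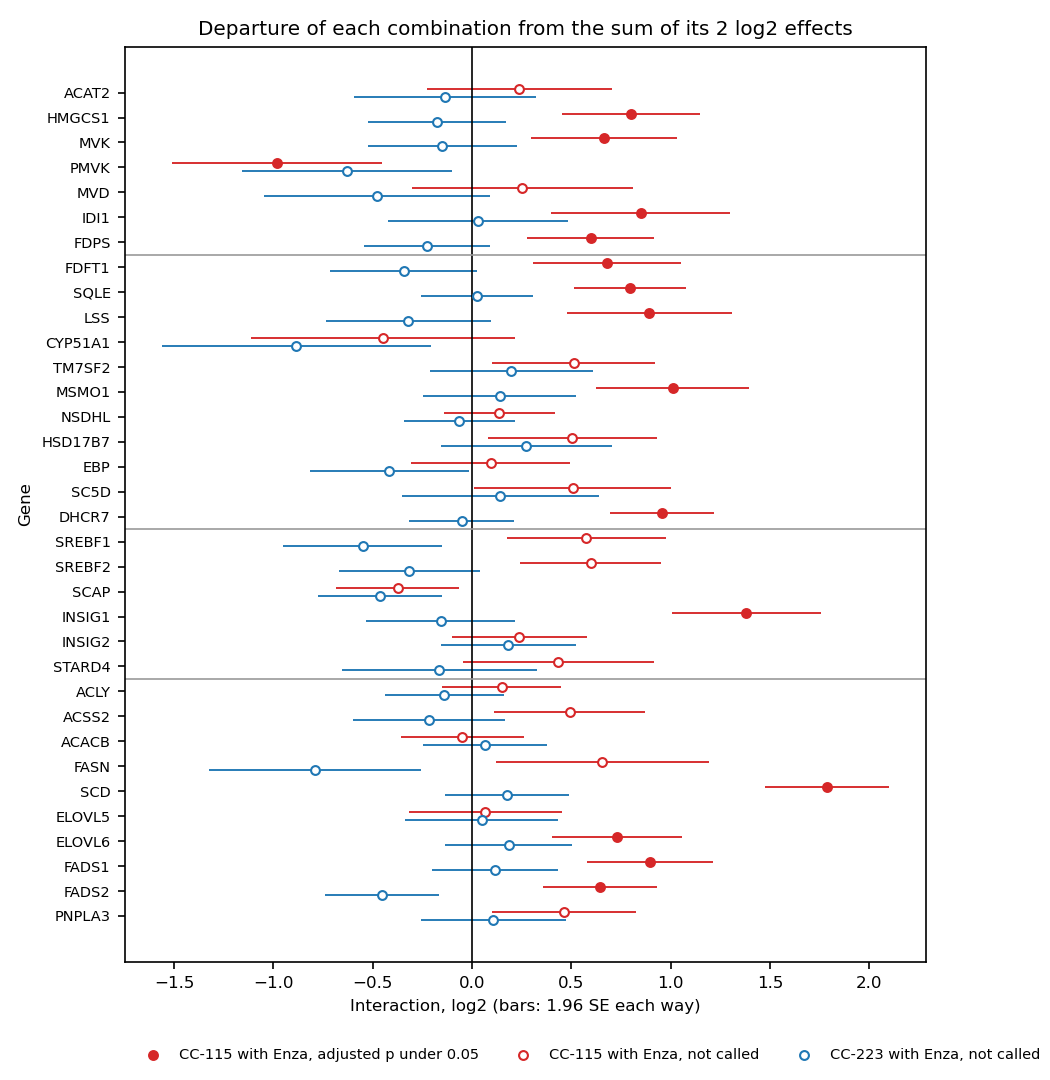
Interaction with Enza of CC-115 (red) and of CC-223 (blue) for the 34 genes (rows, by role), in log2, with bars for the 95% interval, where filled points passed an adjusted p of 0.05. Filled red points lie right of 0 for 14 genes and left of 0 for PMVK, and no blue point is filled.

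RefSeq promoters of members were read from GRCh38.p14 to show what the genes whose interactions differed most carry before their start. A promoter was on hand for 29 of the 34 genes. SCD, INSIG1, LSS and SREBF1 are shown as the 4 of these with the largest difference of interactions, and SREBF2 as the 1 member with a match to the sterol response element. Each stretch lies within 250 bases before the start, reads 5′ to 3′ on the strand of the gene, and has in capitals the matches to the motifs TCACNCCAC (sterol response element), CACGTG (E-box), CCAAT (NF-Y box) and GGGCGG (SP1 box), searched on both strands, where matches of 1 motif may overlap.
SCD, chr10:100346994-100347232, plus strand: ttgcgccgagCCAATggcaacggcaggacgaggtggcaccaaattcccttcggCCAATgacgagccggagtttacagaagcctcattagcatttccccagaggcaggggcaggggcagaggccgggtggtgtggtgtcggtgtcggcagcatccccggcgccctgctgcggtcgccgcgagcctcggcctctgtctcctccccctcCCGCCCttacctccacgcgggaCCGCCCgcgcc
INSIG1, chr7:155297635-155297838, plus strand: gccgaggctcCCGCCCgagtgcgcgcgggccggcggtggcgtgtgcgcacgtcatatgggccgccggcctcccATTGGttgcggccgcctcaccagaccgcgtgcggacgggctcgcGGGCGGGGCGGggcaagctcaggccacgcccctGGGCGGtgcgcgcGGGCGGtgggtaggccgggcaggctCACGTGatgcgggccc
LSS, chr21:46228797-46229016, minus strand: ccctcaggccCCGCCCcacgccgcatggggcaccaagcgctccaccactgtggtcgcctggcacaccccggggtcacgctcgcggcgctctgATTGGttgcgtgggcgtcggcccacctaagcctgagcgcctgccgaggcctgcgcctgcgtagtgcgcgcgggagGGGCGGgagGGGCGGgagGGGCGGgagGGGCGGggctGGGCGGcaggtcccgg
SREBF1, chr17:17837002-17837087, minus strand: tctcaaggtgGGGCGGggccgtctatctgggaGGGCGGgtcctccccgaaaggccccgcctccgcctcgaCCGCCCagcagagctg
SREBF2, chr22:41832962-41833104, plus strand: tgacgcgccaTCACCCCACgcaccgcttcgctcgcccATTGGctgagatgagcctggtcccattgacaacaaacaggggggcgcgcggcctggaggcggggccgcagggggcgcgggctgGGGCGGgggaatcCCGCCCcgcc

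In SCD the 2 NF-Y boxes begin 229 and 186 bases before the start and the SP1 boxes 33 and 11 bases before it. INSIG1 has an E-box 55 bases before the start, and SREBF2 has its sterol response element at 133 and an NF-Y box at 106 bases before it. Among the 29 members 21 (72.4%) held an NF-Y box, against 37.0% of 27305 genes with a promoter, and 27 (93.1%) held an SP1 box, against 46.24%. A gene was counted if any of its promoter windows held a match. An E-box was in 4 (13.8%, all genes with a promoter 7.73%) and the sterol response element in 1 (3.4%, all such genes 1.09%). The matches describe letters in these windows and not bound sites. Some members, IDI1 among them, had more than 1 window. Base composition and the number of windows per gene were not matched between the sets.

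With CC-223 and Enza most called members went down. In CC-223+Enza against Enza, 3 members rose and 21 fell (all genes 13% and 15%), with a median of −0.50. FADS2 (−1.11 ± 0.10), EBP (−1.37 ± 0.15), INSIG1 (−0.99 ± 0.14), SREBF1 (−0.94 ± 0.15) and FASN (−0.94 ± 0.19) were among those that fell, and TM7SF2 (0.73 ± 0.15), ELOVL5 (0.37 ± 0.14) and PNPLA3 (0.38 ± 0.13) rose. The calls of ELOVL5 (0.18 to 0.53 over single libraries left out) and PNPLA3 were lost in 7 and 6 alternative fits. Against CC-223 alone 5 rose and 8 fell (all genes 5.66% and 6.76%), with FDFT1 (−0.86 ± 0.14), HMGCS1 (−0.59 ± 0.13) and INSIG1 (−0.54 ± 0.14) among the falls. That count was 5 and 3 without replicate 1 of CC-223+Enza, where all-gene calls were 4.26% and 4.75%, and 5 and 19 without the 2 libraries that stand apart (11.9% and 14.7%).

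Alone, the 2 TOR kinase inhibitors also differed at the same dose and time. CC-223 against Ctrl called 1 member higher, TM7SF2 (0.53 ± 0.15), and 14 lower (all genes 12.9% and 10.9%), led by ELOVL6 (−1.01 ± 0.12), EBP (−0.95 ± 0.15), INSIG1 (−0.83 ± 0.14) and ACAT2 (−0.79 ± 0.17). The TM7SF2 call was lost with any 1 of replicates 1 and 3 of Ctrl and of CC-223 left out. CC-115 against Ctrl called 9 higher and 11 lower (all genes 27.6% and 26%). MVD (1.22 ± 0.20), FASN (1.00 ± 0.19), TM7SF2 (0.72 ± 0.15), SC5D (0.72 ± 0.18) and SCD (0.65 ± 0.11) rose, while EBP (−2.24 ± 0.15), ACAT2 (−2.23 ± 0.17) and ELOVL6 (−2.05 ± 0.12) fell. In the direct comparison of CC-115 with CC-223, 13 members were higher and 5 lower (all genes 20.5% and 22.7%), among them MVD (1.48 ± 0.21), SCD (1.21 ± 0.11), FASN (1.16 ± 0.20) and STARD4 (1.10 ± 0.18) higher and ACAT2 (−1.44 ± 0.17) and EBP (−1.28 ± 0.15) lower. HMGCS1 (−0.10 ± 0.12, 95% interval −0.35 to 0.14), SQLE (−0.11 ± 0.10, −0.31 to 0.09) and FADS2 (−0.07 ± 0.10, −0.27 to 0.13) were not called between them.

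Enza against Ctrl called 8 members higher and 6 lower (all genes 9.35% and 6.75%). ELOVL5 fell most (−1.59 ± 0.14), followed by FDFT1 (−0.52 ± 0.13), MSMO1 (−0.51 ± 0.14) and HMGCS1 (−0.41 ± 0.13), and TM7SF2 rose (0.58 ± 0.15). Most of these calls hung on single libraries. Those of MSMO1, HMGCS1, FADS1, SCD, TM7SF2, ACACB, PNPLA3, PMVK, SREBF1 (0.45 ± 0.14) and CYP51A1 (0.71 ± 0.24) were lost without replicate 1 of Enza, and also without replicate 1 of Ctrl, and CYP51A1 became −0.05 without the former. Without replicate 1 of Enza 2 members were higher and 4 lower (all genes 4.13% and 5.14%), and without replicate 1 of Ctrl 1 and 1 (3.73% and 3.93%).

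NU7441 against Ctrl called 6 members higher and none lower (all genes 2.28% and 1.11%), with a median of 0.22 against 0.02 over all genes. At an unadjusted p under 0.05, 16 were higher and 0 lower, and the all-gene share at that cut was not computed. DESeq2 called 6 and 0 (all genes 2.74% and 2.5%). The calls were TM7SF2 (0.98 ± 0.15), INSIG1 (0.49 ± 0.14), PNPLA3 (0.48 ± 0.13), SCD (0.46 ± 0.11), HMGCS1 (0.46 ± 0.12) and SQLE (0.40 ± 0.10). Leaving out any 1 of the Ctrl libraries or replicate 2 of NU7441 left 1 call (all genes 0.207% to 0.81% higher and 0.114% to 0.721% lower). Leaving out replicate 1 of NU7441 left 3 (1.66% and 1.79%). Leaving out the 2 libraries that stand apart gave 18 higher and 1 lower, in a fit that called 10.4% and 11.3% of all genes. In NU7441+Enza against Enza 1 member was called, SCD (0.52 ± 0.11, adjusted p = 0.0408), against 0.223% of all genes higher and 0.157% lower. At an unadjusted p under 0.05 12 members were higher and 4 lower, again without an all-gene share. Without replicate 1 of Enza, or without any 1 of the NU7441+Enza libraries, no member was called. Without replicate 2 of Enza 3 were higher and 2 lower (all genes 0.7% and 2.07%), and without replicate 3 of Enza 3 and 4 (1.19% and 3.77%). In NU7441+Enza against NU7441 3 rose and 3 fell (all genes 2.75% and 3.32%), with INSIG2 (0.72 ± 0.12), STARD4 (0.63 ± 0.17) and ELOVL6 (0.63 ± 0.11) higher and ELOVL5, FDFT1 (−0.56 ± 0.13) and SQLE (−0.34 ± 0.10) lower. The calls of STARD4 and SQLE were each lost in 6 alternative fits, and that of FDFT1 without replicate 2 of NU7441.

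In 22Rv1 more members fell than rose with CC-115 alone. Of 34, 6 rose and 17 fell (all genes 20.2% and 20.7% of 19392 tested), with a median of −0.54 over the members and −0.02 over all genes. With any 1 library left out 2 to 7 rose and 13 to 16 fell. HMGCS1 was at 114, 113 and 105 CPM in the 3 Control libraries and 39.7 and 27.5 in the 2 CC-115 libraries and fell (−1.72 ± 0.18). SQLE went from 84.5, 83.9 and 77.4 CPM to 40.2 and 26.9 and fell (−1.29 ± 0.18), and INSIG1 from 209.9, 197 and 181 to 117 and 94.9 and fell (−0.89 ± 0.14). For these 3 genes both treated libraries lay below all Control libraries. FASN, at 885, 1066 and 1561 CPM in Control and 1982 and 3120.1 with CC-115, rose by 1.12 ± 0.25, a call lost without CC-115 replicate 2 (adjusted p = 0.0669). SREBF2 (202, 205 and 263 against 291 and 386 CPM) rose by 0.60 ± 0.17. That call was lost without Control 1, Control 2 or CC-115 2, and the value lay between 0.38 and 0.79 over single libraries left out. SREBF1 (293, 298 and 392 against 225 and 293 CPM, −0.34 ± 0.17) and SCD (819, 776 and 849.6 against 835 and 779.8 CPM, −0.01 ± 0.10, 95% interval −0.20 to 0.18) were not called. The SCD groups overlapped, and the higher SREBF1 library with CC-115 was less than 1 CPM below the lowest Control library.

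By role, 4 of 7 mevalonate genes fell (ACAT2, HMGCS1, IDI1 and FDPS) and MVD rose (0.52 ± 0.15, lost without Control 1, Control 2 or CC-115 2), and 7 of 11 genes between squalene and cholesterol fell while TM7SF2 rose (1.22 ± 0.13). Among these falls the call of CYP51A1 was lost in 5 alternative fits and that of SC5D in 3. Of all genes tested 20.2% rose and 20.7% fell. Taking each library set apart, the deeper one (1 CC-115 library against 2 Control) and the shallower one (1 against 1) gave the same sign for 32 members, 7 above and 25 below Control in both, with medians of −0.51 and −0.55. These within-set values have no test, and the share of all genes with the same sign in both sets was not computed. HMGCS1 was at −1.52 and −1.93, SQLE at −1.06 and −1.53, INSIG1 at −0.80 and −0.93 and FASN at 1.02 and 1.00 in the deeper and the shallower set. The level of ALB, the hepatocyte marker named above, fell with CC-115 in the same libraries, and its part in these results was not tested.

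The CC-115 effect differed between the lines for 16 members, 5 with a more positive value in 22Rv1 and 11 with a more negative one (all genes 15.2% and 12.3% of 22922 tested). SC5D rose in C4-2 (0.72 ± 0.18) and fell in 22Rv1 (−1.27 ± 0.41), a difference of −1.92 ± 0.41. Its fall in 22Rv1 lay between −2.06 and −0.78 over single libraries left out and was not called without Control 1, Control 2 or CC-115 2. STARD4 did the same (0.55 ± 0.17 and −1.32 ± 0.41, difference −1.80 ± 0.43), and its fall lay between −2.03 and −0.85 and was lost without the same libraries, as was its rise in C4-2 without replicate 3 of Ctrl. HMGCS1 showed −0.12 ± 0.12 in C4-2 against its fall in 22Rv1 (difference −1.54 ± 0.18, adjusted p = 4.94e-05). EBP and ACAT2 fell in both lines, less in 22Rv1 (−1.41 ± 0.11 and −1.41 ± 0.14; differences 0.88 ± 0.11 and 0.88 ± 0.16). FASN (0.17 ± 0.30, 95% interval −0.43 to 0.76) and SREBF2 (0.07 ± 0.17, −0.25 to 0.40) were not called as different. The line and any difference in how the 2 sets of libraries were made cannot be told apart here.

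**Figure D4:**
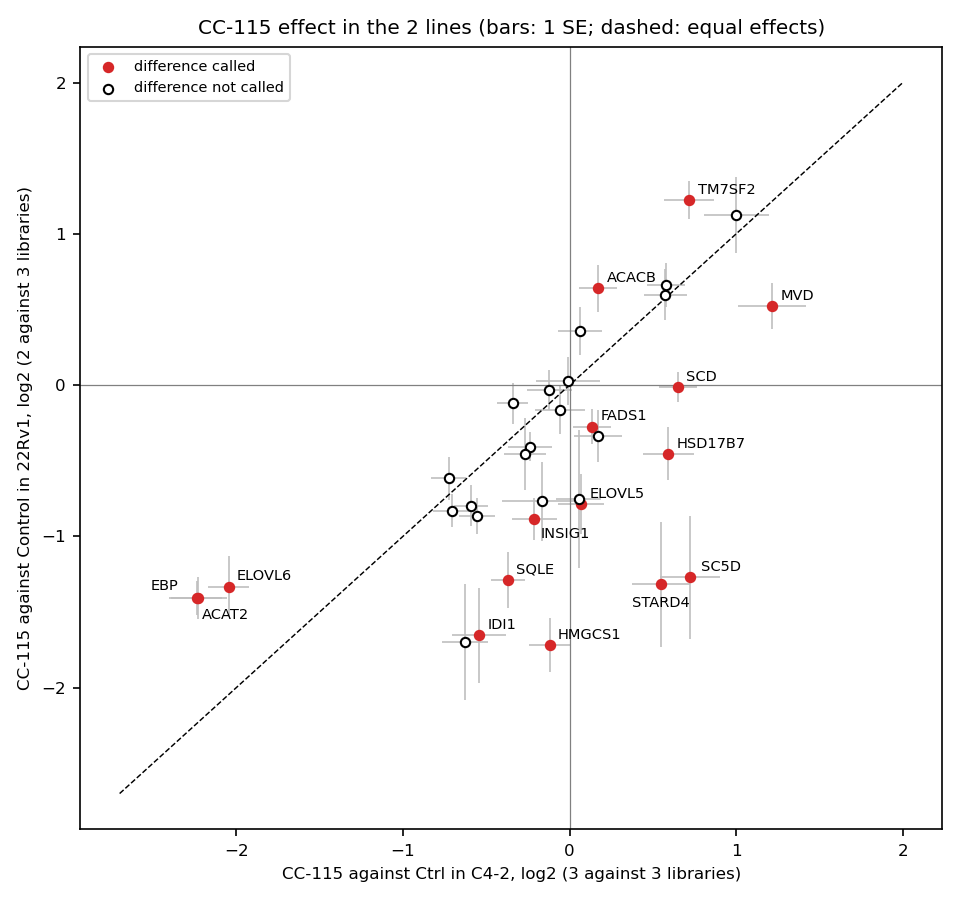
Log2 fold change with CC-115 in C4-2 (horizontal, 3 against 3 libraries) and in 22Rv1 (vertical, 2 against 3 libraries) for the 34 genes, with bars of 1 SE and a dashed line of equal effects. The 16 genes whose difference was called are red and named, 11 of them below the line, with SC5D and STARD4 right of 0 and below 0.

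Another 41 genes of the pathway and its surroundings were listed to set the members in context, and all were tested. These covered SREBP processing and its partner factors, the isoprenoid branch, and fatty acid elongation, activation and storage. In CC-115+Enza against CC-115, 7 rose and 6 fell (median −0.05, all genes 11.7% and 12.2%). Against Enza 8 rose and 19 fell (28.5% and 30.2%), and against CC-223+Enza 9 rose and 16 fell (23.7% and 26.7%). For the CC-115 interaction 2 were called and positive and none negative, against 0.993% and 2.27% of all genes. They were ACSL1 (1.52 ± 0.21), which activates long-chain fatty acids, and LPIN1 (1.31 ± 0.15), a phosphatidate phosphatase. At an unadjusted p under 0.05 there were 4 positive and 2 negative, with no all-gene share computed at that cut. The same 2 genes and ACSL3 (0.75 ± 0.16) were called in the difference of interactions (all genes 0.906% positive and 0.984% negative). MBTPS1, the Golgi protease that makes the first cut in SREBP, rose with CC-115 (0.85 ± 0.09) and was at −0.02 ± 0.09 in CC-115+Enza against CC-115 (not called). SCD5, a desaturase related to SCD, fell in CC-115+Enza against Enza (−2.36 ± 0.17). In 22Rv1 5 of the 41 rose and 18 fell with CC-115 (all genes 20.2% and 20.7%). The falls were led by IDH1 (−2.33 ± 0.19), the cytosolic isocitrate dehydrogenase.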

How the data were processed

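RNA-seq libraries of C4-2 and 22Rv1 were aligned with STAR 2.5.2a to hg19 and counted with featureCounts 1.5.0-p3, and DESeq2 1.14.1 was used, per the submitters' processing notes. The authors deposited 1 table of raw counts per line, with whole-number counts per gene and library. Which annotation, strand setting and multi-mapping rule the counting used is not given in the sources used. Here, genes were filtered with filterByExpr, scaled with TMM and tested with edgeR 4.0.16 (robust quasi-likelihood F-test, R 4.3.3), with adjusted p-values over all genes tested and calls at 0.05. All 24 C4-2 libraries shared 1 fit, the 5 of 22Rv1 another, and the difference between lines a joint fit. The SE is the absolute log2 fold change over the root of its F statistic, and 95% intervals use the normal quantile. CPM and RPKM were computed from the counts and TMM factors. Grouping followed the labels. The scripts were tested on simulated data. Library totals of 29.58 M to 44.91 M put at least 93 counts on each member in each C4-2 Ctrl library, while in 22Rv1 PNPLA3 had as few as 9 and INSIG2 as few as 35, and counting error covers only part of the spread, since replicate pairs differed beyond sampling noise. The members and lists were chosen with earlier results of these data known. All 34 members are reported, with values per library for 7 set genes (HMGCS1, SQLE, INSIG1, SREBF1, SREBF2, FASN and SCD) and for up to 3 called members with the largest rise and fall in each of the first 5 comparisons. Members were matched by symbol to RefSeq promoters on GRCh38.p14, and gene positions are those of hg19 in the count tables. Alternatives were DESeq2 1.42.0, median-of-ratios factors, no filter, a replicate block, only the groups compared, small and mitochondrial RNA removed, and left-out libraries. One more, a term for the 22Rv1 library set, was chosen after seeing the data.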

Additional observations from a re-analysis of the deposited data

Results flagged for a closer look

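The effect of CC-115 differed between 22Rv1 and C4-2, by a test of the difference itself, for 16 of the 34 genes. The difference, 22Rv1 minus C4-2 on the log2 scale, was negative in the sterol enzymes HMGCS1 (−1.54), IDI1 (−1.05), MVD (−0.65), SQLE (−0.86), HSD17B7 (−1.0) and SC5D (−1.92). It was also negative in INSIG1 (−0.62), STARD4 (−1.8), SCD (−0.61), ELOVL5 (−0.8) and FADS1 (−0.36). It was positive in ACAT2 (0.88), EBP (0.88), TM7SF2 (0.55), ACACB (0.51) and ELOVL6 (0.77). SCD rose in C4-2 (0.65 ± 0.11) and was not called in 22Rv1 (−0.01 ± 0.10), ELOVL5 fell in 22Rv1 (−0.79 ± 0.20) and was not called in C4-2 (0.07 ± 0.14), and MVD rose in both lines. With 1 library left out 13 to 19 differences were called, and with a term for the 22Rv1 library set 22, 7 positive and 15 negative, in a fit that called 20.6% and 19.2% of all genes (15.2% and 12.3% without the term). The calls of ACACB, IDI1 and FADS1 were lost in 9, 8 and 6 alternative fits, and IDI1 lay between −1.65 and −0.72 over single libraries left out.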

How the results depend on the processing

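Counts of called genes lay within 1.5 times of the value reported in 218 of 254 repeats, including all those of CC-115+Enza against CC-115, Enza, CC-223+Enza and Ctrl. For the CC-115 interaction 15 were called (all genes 0.993% positive and 2.27% negative). With only the groups compared fitted 6 were called (0.374% and 0.384%). Without replicate 1 of Enza and of CC-115+Enza 23 were called (2.72% and 3.45%), and single libraries left out gave 9 to 17. The share of all genes called, higher and lower, moved with the fit as well and is given in brackets. With only the groups compared fitted, CC-223 against Ctrl gave 23 (22.1% and 25.5%) and Enza against Ctrl 3 (2.68% and 2.68%). NU7441 against Ctrl gave 13 (6.25% and 7.58%) and CC-223+Enza against CC-223 24 (17.3% and 19.1%). NU7441+Enza against NU7441 gave 16 (6.2% and 7.56%). Members higher and lower were, in that order, 2 and 21, 1 and 2, 13 and 0, 5 and 19, and 2 and 14. NU7441+Enza against Enza gave 0 in such a fit (0.0% and 0.0%). Without both replicates that stand apart, NU7441 against Ctrl gave 19 (10.4% and 11.3%) and CC-223+Enza against CC-223 24 (11.9% and 14.7%). The CC-223 interaction gave 1 (0.602% and 1.32%) and the difference of interactions 26 (2.6% and 2.7%). NU7441+Enza gave 7 against Enza (1.83% and 0.762%) and 17 against NU7441 (7.36% and 8.36%). The call of the CC-223 interaction was negative, the 7 were all higher, and the 17 were 3 higher and 14 lower. Median-of-ratios factors gave 2 for NU7441 against Ctrl (1.68% and 1.23%) and 0 for NU7441+Enza against Enza (0.136% and 0.122%). For the latter DESeq2 gave 5 (0.726% and 0.735%) and no filter 9 (0.361% and 1.02%). The CC-223 interaction gave 2 with no filter (0.138% and 0.31%). Single libraries left out gave 2 to 16 for Enza against Ctrl, 1 to 5 for NU7441 against Ctrl, 8 to 11 for CC-223+Enza against CC-223 and 0 to 7 for NU7441+Enza against Enza. All-gene calls moved too, for Enza against Ctrl from 3.73% and 3.93% without replicate 1 of Ctrl to 11.2% and 9.97% without replicate 2 of Enza. CYP51A1 reversed in CC-115+Enza against Enza (0.16 without replicate 1 of Enza, −0.85 to 0.16 over single libraries left out, 0.20 without both) and in Enza against Ctrl (−0.048, −0.048 to 0.96, and −0.0098). SCD in 22Rv1, near 0, became 0.017 with the replicate block and lay between −0.065 and 0.035 over single libraries left out, above 0 without Control replicate 3 or CC-115 replicate 2. In the difference between lines SREBF2 became −0.033 with no filter, −0.051 without 22Rv1 Control replicate 2 and −0.19 without 22Rv1 CC-115 replicate 2 (range −0.19 to 0.24), and FASN −0.23 without the latter (range −0.23 to 0.43). The cause of these shifts was not tested. The labels tie libraries across groups only by a number. Over 84 same-numbered pairs the deviations correlated at a median of −0.0099 (−0.593 to 0.457), with 20 pairs above 0.1. Over 168 other pairs the median was 0.0084 (−0.474 to 0.578), with 48 above 0.1. A median near 0 over correlations of both signs cannot show whether equal numbers share a culture or batch. These deviations cover genes with an average log2 CPM above 1. With the replicate number as a block the CC-115 interaction gave 10 calls (all genes 0.783% and 1.74%). In that fit NU7441 against Ctrl gave 3 (1.72% and 0.779%) and NU7441+Enza against Enza 0 (0.118% and 0.07%). Depth limits the members with few counts most, PNPLA3 and INSIG2 among them.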
